A study of Mus musculus with 8 samples.

Results

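Dentate granule cells, the principal neurons of the dentate gyrus, were followed through 7 marker genes, Prox1, Dsp, C1ql2, Tdo2, Stxbp6, Lct and Calb1. The genes were chosen by name, and all 7 of the 54532 genes listed in the deposited table were found and passed the minimum for testing, a mean of at least 0.5 FPKM (fragments scaled by gene length and by a constant per library, by the authors) over the 8 libraries. The hippocampus of adult mice was profiled by RNA sequencing, with 4 libraries from Kat6a heterozygotes (Kat6a+/-) and 4 from wild-type animals (WT). KAT6A is a lysine acetyltransferase that acts on histones, and the study's title concerns cognition and RSPO2/Wnt signalling in the CA3 field. How the allele was made, the strain, the age beyond adult and the sex are not given in the labels, which also do not say that each library came from its own animal, so that p-values reflect the spread among libraries, which may be technical.

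Granule cells receive the main cortical input to the hippocampus and send their axons, the mossy fibres, to hilar mossy cells and to the pyramidal neurons of CA3. They are also the neurons that adult neurogenesis in the dentate gyrus produces. The transcription factor PROX1 specifies and maintains the granule cell fate, and the calcium-binding protein calbindin, encoded by Calb1, fills mature granule cells.

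Kat6a itself measured 7.02 ± 0.683 FPKM in Kat6a+/- and 9.15 ± 0.498 FPKM in WT (SD, n = 4 each), without overlap and in the direction the labels give. Its adjusted p was 0.9998 in limma and 0.00639 in DESeq2. In 1.53% of all tested genes every Kat6a+/- library lay below every WT library, so this is not a check of each library's genotype. Library totals lay between 16462428 and 27875310 reads. The markers were present in each library at between 90 and 3221 reads per gene, together 0.0475% to 0.0581% of a library's reads. In bulk tissue, a change in the number of granule cells and a change in RNA per granule cell cannot be told apart. Of the 14159 genes tested with limma, 0 passed an adjusted p of 0.05, which is 0%, and 0 of the 7 markers passed. On reads recovered from the FPKM values, DESeq2 called 5 genes (0.0353%), none of them a marker, and edgeR and limma-voom called 0 (0% each). At an unadjusted p under 0.05 limma had 4.41% of all tested genes, edgeR 4.35%, limma-voom 4.24% and DESeq2 3.3%, and in each of the 4 this held for 0 of the 7 markers.

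Per length, C1ql2 was the most abundant at a mean of 35.9 FPKM over the 8 libraries. Calb1 followed at 23.0 FPKM, then Stxbp6 at 17.9 FPKM, Prox1 at 13.7 FPKM, Lct at 8.59 FPKM, Dsp at 7.27 FPKM and Tdo2 at 1.66 FPKM. This order held in 8 of 8 libraries for each pair of neighbours. Lct and Dsp were the neighbours whose ranges met, at 7.04 to 9.87 FPKM for Lct and 6.04 to 8.63 FPKM for Dsp.

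Sequence upstream of the transcription start is shown for Prox1 and Dsp because these were the pair of markers whose levels followed each other most closely across libraries. Each run is the 250 bases before the start in RefSeq (GRCm38.p6), read 5′ to 3′ on the gene's strand. The Prox1 window is chr1:190170828-190171077 on the minus strand, and the Dsp window is chr13:38151044-38151293 on the plus strand. The Prox1 start used lies 113 bases upstream of the start in the deposited gene coordinates. RefSeq lists another Prox1 start, and its window, chr1:190169516-190169765, is not shown. That window held none of the motifs searched for, and G and C made up 56% of it. Capitals mark matches to CAGATG, an E-box that basic helix-loop-helix factors such as NEUROD1 can bind, and to TATAAA, the core of the TATA box, searched on both strands.
Prox1: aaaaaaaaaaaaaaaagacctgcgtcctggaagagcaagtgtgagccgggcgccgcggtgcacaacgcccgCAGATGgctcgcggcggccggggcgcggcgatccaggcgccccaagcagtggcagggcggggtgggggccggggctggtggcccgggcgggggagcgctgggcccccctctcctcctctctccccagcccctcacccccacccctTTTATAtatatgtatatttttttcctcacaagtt
Dsp: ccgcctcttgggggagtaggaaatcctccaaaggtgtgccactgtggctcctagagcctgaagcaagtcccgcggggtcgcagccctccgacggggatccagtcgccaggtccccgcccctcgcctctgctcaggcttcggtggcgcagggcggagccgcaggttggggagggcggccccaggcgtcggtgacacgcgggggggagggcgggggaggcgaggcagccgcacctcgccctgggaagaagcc
In the Prox1 window, CAGATG began 179 bases before the start. TATAAA matched the other strand there, 34 bases before the start. The Dsp window held neither. Of 32851 mouse windows of the same length, 14.4% held CAGATG and 12.4% held TATAAA on either strand. Searches for the E-box CAGCTG, held by 13.0% of all windows, for the E-box CACGTG, held by 6.02%, and for TGACGTCA, a cyclic AMP response element held by 1.55%, gave 0 matches in the 7 windows listed for 6 of the markers. G and C made up 64.8% of the Prox1 window and 72.4% of the Dsp window, against a median of 52.4% over all windows. A match describes these letters and does not show binding.

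**Figure D1:**
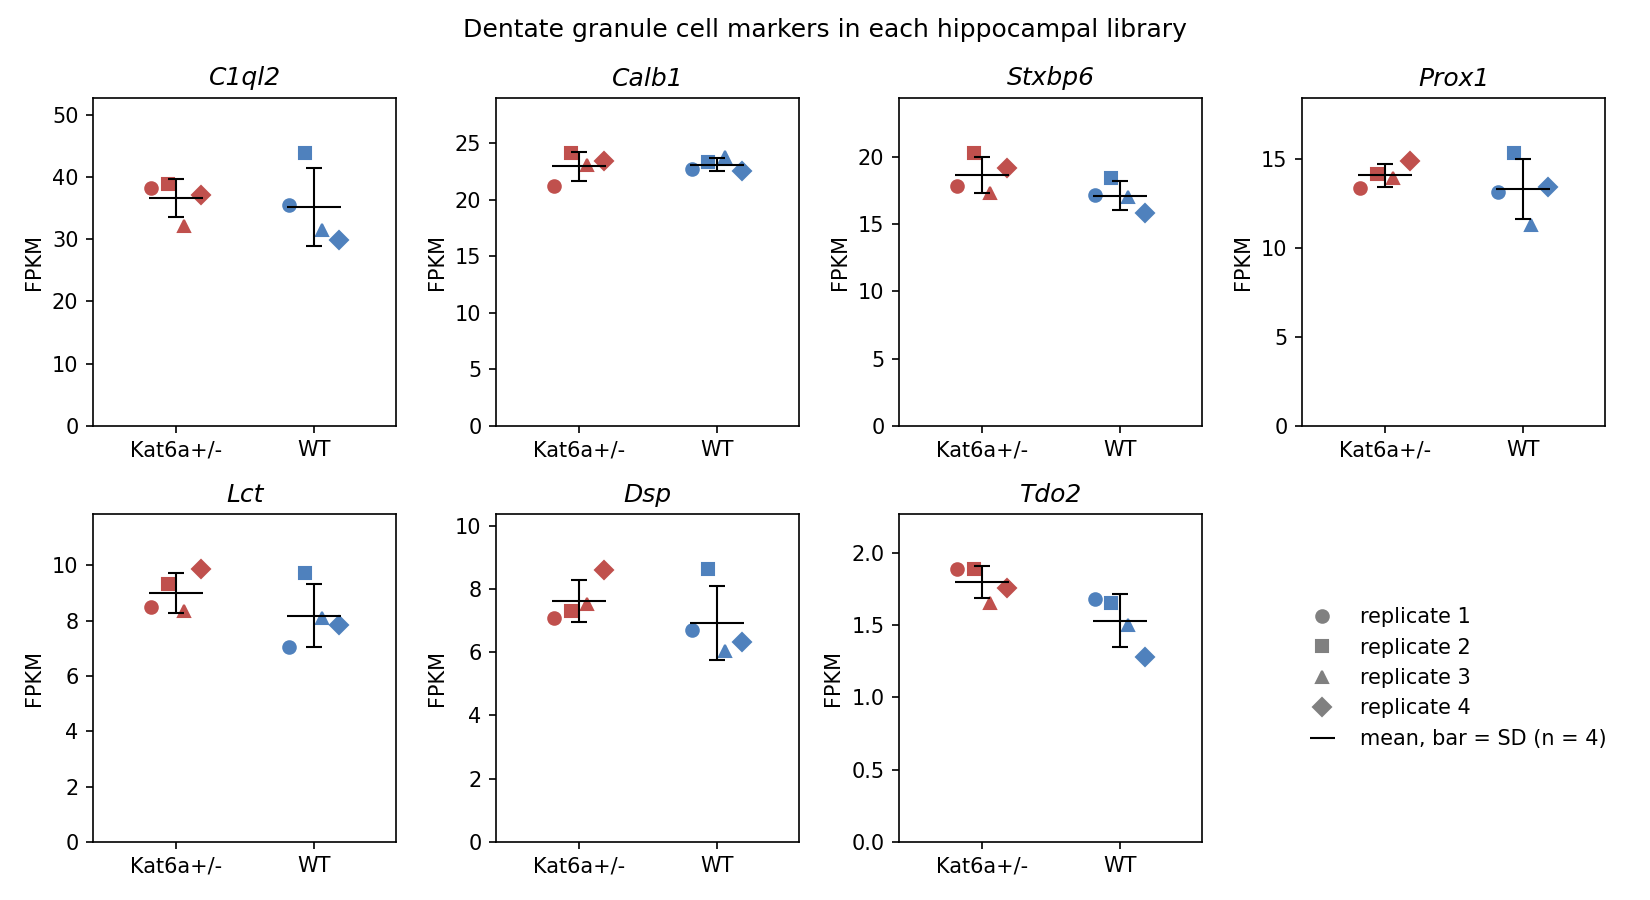
FPKM of the 7 dentate granule markers in each library, Kat6a+/- left of WT, with the replicate number as the symbol and the mean and SD (n = 4 each) as lines; each vertical axis starts at 0 and has its own scale. The 2 genotypes overlap in every panel, and WT replicate 2 has the highest C1ql2, Prox1 and Dsp of the 8 libraries.

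Prox1, the granule cell transcription factor, measured 13.3, 14.1, 14.0 and 14.9 FPKM in Kat6a+/- replicates 1 to 4 and 13.2, 15.4, 11.3 and 13.4 FPKM in WT replicates 1 to 4. Both the highest and the lowest library were WT, replicates 2 and 3, and the Kat6a+/- values lay inside the WT range. The means were 14.1 ± 0.632 FPKM in Kat6a+/- and 13.3 ± 1.67 FPKM in WT (SD, n = 4 each). The log2 fold change of FPKM + 0.5 was 0.08 (SE 0.08; 95% interval -0.10 to 0.27; limma adjusted p = 0.9998; exact two-sided permutation p = 0.429). Without WT replicate 3 it was 0.01, and without WT replicate 2 it was 0.15. Prox1 (ENSMUSG00000010175) spans 190118035 to 190170714 of chromosome 1 (GRCm38), minus strand. The antisense genes Prox1os and Gm28172 overlap it with 462 and 43 reads over all libraries, against 18409 for Prox1. Whether counting used the strand is not given in the sources used here, so these reads could be shared.

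Dsp encodes desmoplakin, which ties desmosomes to intermediate filaments and marks granule cells within the hippocampus. It measured 7.07, 7.30, 7.51 and 8.59 FPKM in Kat6a+/- and 6.69, 8.63, 6.04 and 6.31 FPKM in WT. WT replicates 1, 3 and 4 lay under all of the Kat6a+/- libraries, and WT replicate 2 lay above them all. The means were 7.62 ± 0.674 FPKM in Kat6a+/- and 6.92 ± 1.18 FPKM in WT (SD, n = 4 each). The log2 fold change was 0.14 (SE 0.10; 95% interval -0.09 to 0.37; limma adjusted p = 0.9998; exact permutation p = 0.314). It was 0.24 without WT replicate 2, at an unadjusted limma p of 0.00912 (adjusted p = 0.9993). Without WT replicate 3 it was 0.08, at an unadjusted limma p of 0.459.

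C1ql2, a secreted C1q-like protein that mossy fibres release and that recruits kainate receptors at their synapses on CA3 neurons, was measured at 38.2, 38.9, 32.1 and 37.1 FPKM in Kat6a+/- and at 35.5, 43.9, 31.4 and 29.8 FPKM in WT. WT libraries again held both extremes, replicate 2 at the top and replicate 4 at the bottom. Means of 36.6 ± 3.08 FPKM in Kat6a+/- and 35.2 ± 6.31 FPKM in WT (SD, n = 4 each) gave a log2 fold change of 0.07 (SE 0.11; 95% interval -0.18 to 0.32; limma adjusted p = 0.9998; exact permutation p = 0.657). Its sign turned, to -0.0043, without WT replicate 4, and it was 0.18 without WT replicate 2.

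Stxbp6 encodes amisyn, which binds SNARE proteins of vesicle fusion. It measured 17.9, 20.3, 17.3 and 19.2 FPKM in Kat6a+/- and 17.2, 18.5, 17.0 and 15.8 FPKM in WT. Kat6a+/- replicates 2 and 4 lay above all WT libraries, and the other 2 Kat6a+/- libraries lay among them. The means were 18.7 ± 1.36 FPKM in Kat6a+/- and 17.1 ± 1.08 FPKM in WT (SD, n = 4 each). The log2 fold change was 0.12 (SE 0.06; 95% interval -0.02 to 0.26; limma unadjusted p = 0.0799 and adjusted p = 0.9998; exact permutation p = 0.143). Leaving out 1 library gave 0.08 (without Kat6a+/- replicate 2, limma unadjusted p = 0.221) to 0.16 (without WT replicate 2, unadjusted p = 0.0365, adjusted p = 0.9993).

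Among the enzymes, Tdo2 stood out by the share of its spread that lay between genotypes. Tdo2 encodes tryptophan 2,3-dioxygenase, which opens the kynurenine pathway of tryptophan breakdown. It measured 1.89, 1.88, 1.66 and 1.76 FPKM in Kat6a+/- and 1.68, 1.65, 1.50 and 1.28 FPKM in WT. Kat6a+/- replicates 1, 2 and 4 lay above every WT library, and Kat6a+/- replicate 3 lay just above WT replicate 2 and under WT replicate 1. The means were 1.80 ± 0.112 FPKM in Kat6a+/- and 1.53 ± 0.184 FPKM in WT (SD, n = 4 each), and the Kat6a+/- mean was 117% of the WT mean. The log2 fold change was 0.18 (SE 0.09; 95% interval -0.01 to 0.37; limma unadjusted p = 0.0632 and adjusted p = 0.9998; exact permutation p = 0.0571, where 0.0286 is the smallest that 4 against 4 allows). Tdo2 was the marker with the fewest reads, 595 over the Kat6a+/- libraries and 457 over the WT libraries, and the pseudocount understates its change. On the reads, DESeq2 put it at 0.24 (adjusted p = 0.9997). Without WT replicate 4, the lowest library, the limma value was 0.12 (unadjusted p = 0.177), and without WT replicate 1 it was 0.22 (unadjusted p = 0.0429, adjusted p = 0.9999). With all libraries and a term for replicates 1 and 2 against 3 and 4, it was 0.18 (limma unadjusted p = 0.0338, adjusted p = 0.901).

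Lct encodes lactase, known from the intestine and also transcribed in granule cells of the mouse. Its values were 8.50, 9.32, 8.33 and 9.87 FPKM in Kat6a+/- and 7.04, 9.73, 8.08 and 7.84 FPKM in WT. All Kat6a+/- libraries lay above WT replicates 1, 3 and 4, and WT replicate 2 lay second of the 8. The means were 9.00 ± 0.721 FPKM in Kat6a+/- and 8.18 ± 1.13 FPKM in WT (SD, n = 4 each), at a log2 fold change of 0.14 (SE 0.09; 95% interval -0.07 to 0.34; limma adjusted p = 0.9998; exact permutation p = 0.200). Without WT replicate 2 it was 0.22, at an unadjusted limma p of 0.0167 (adjusted p = 0.9993). Without WT replicate 1 it was 0.07, at an unadjusted limma p of 0.417. The values of Dsp, Stxbp6 and Lct without WT replicate 2 leave out the same library, so they are not independent observations.

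Calb1 was the marker with a mean that was not higher in Kat6a+/-, and this direction turned when 1 library was left out, to a log2 fold change of 0.026 without Kat6a+/- replicate 1 and of 0.0030 without WT replicate 3. It measured 21.2, 24.1, 23.0 and 23.4 FPKM in Kat6a+/- and 22.7, 23.4, 23.8 and 22.5 FPKM in WT. Kat6a+/- libraries held the lowest and the highest value, replicates 1 and 2, around all WT libraries. The means were 22.9 ± 1.26 FPKM in Kat6a+/- and 23.1 ± 0.579 FPKM in WT (SD, n = 4 each). The log2 fold change was -0.01 (SE 0.05), and its 95% interval of -0.12 to 0.09 corresponds to 92.3% to 107% of the WT level (limma adjusted p = 0.9998; exact permutation p = 0.914). Calb1 is also used by CA1 pyramidal neurons and by some interneurons, and Prox1 by some interneurons. All 10 of the interneuron markers examined had lower means in Kat6a+/-, with their FPKM summing to 381 to 412 in Kat6a+/- and 410 to 475 in WT. Their part in the Calb1 and Prox1 values was not tested.

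**Figure D2:**
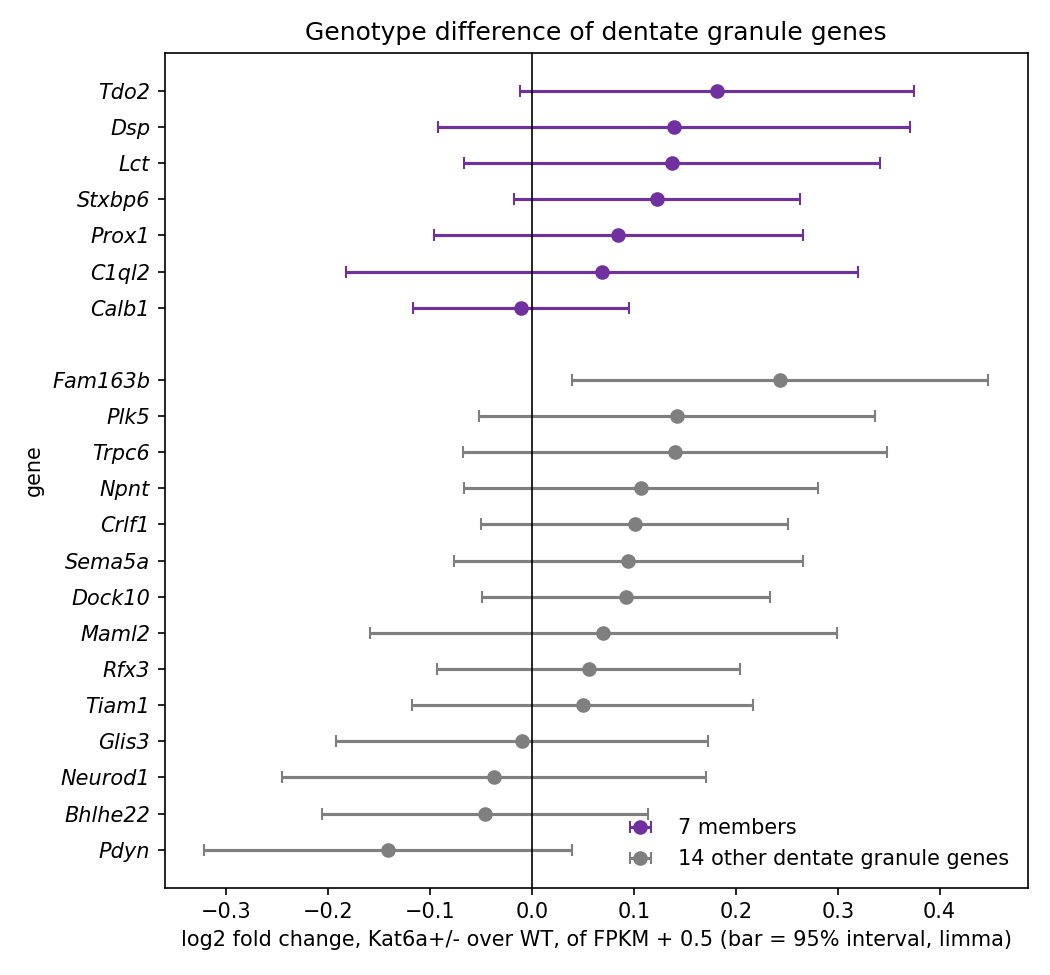
Log2 fold change of FPKM + 0.5, Kat6a+/- over WT, with 95% intervals from limma (n = 4 libraries each), for the 7 markers above and 14 other genes of granule cells below. The interval of every marker includes 0, from Tdo2 at 0.18 down to Calb1 at -0.01, and among the other genes Fam163b alone has an interval that does not.

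As a list, 6 of the 7 markers had a higher mean in Kat6a+/-, where 50.6% of all tested genes did, and the median log2 fold change was 0.12, against 0.0010 over all tested genes. In 0 of the 7 did all Kat6a+/- libraries lie above all WT libraries, which was the case for 1.09% of all tested genes. Leaving out 1 library at a time gave 5 to 7 higher markers and a median between 0.08 (without WT replicate 1) and 0.18 (without WT replicate 2). The counts differed by replicate number, which is given as a description without a test. In replicates 1 and 2 (2 libraries a genotype), 3 of 7 markers had a higher mean log2 value in Kat6a+/- and the median difference was -0.03. In replicates 3 and 4 all 7 did, with a median of 0.18, and Calb1 counted as higher at a difference of 0.0049. The share of all tested genes was not computed for either set of replicates. The markers tended to vary together across libraries (median r of 0.63 over pairs), so these counts are not independent observations. Dsp measured 7.19 FPKM in Kat6a+/- and 7.66 FPKM in WT over replicates 1 and 2, and 8.05 FPKM in Kat6a+/- and 6.17 FPKM in WT over replicates 3 and 4. With both genotypes together, C1ql2 averaged 39.1 FPKM in replicates 1 and 2 and 32.6 FPKM in replicates 3 and 4. Calb1 alone averaged more in replicates 3 and 4, at 23.2 FPKM against 22.9 FPKM. The labels do not say that a replicate number marks a litter, day or batch.

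For each marker, the larger part of the sum of squares of log2 values lay between libraries of the same genotype. The share to be met without a genotype difference was not computed. Genotype took up 1.02% of the sum of squares of log2 values for Calb1, 3.97% for C1ql2, 12.1% for Prox1, 17.8% for Dsp, 21.7% for Lct, 35.5% for Stxbp6 and 48.7% for Tdo2. The coefficient of variation within a genotype had a median of 7.28% in Kat6a+/- and 12.5% in WT over the markers, against 5.56% in Kat6a+/- and 5.77% in WT over the 7161 tested genes that averaged 5 FPKM or more. It was lower in Kat6a+/- for 5 of the 7 markers, and for 52.2% of those genes. The markers tended to vary together, so the 7 values are not independent. WT replicate 2 held the highest value of 3 markers, and WT replicate 3 or 4 the lowest of 5. The coefficient of variation without WT replicate 2 was not computed. Tdo2, at a mean of 1.66 FPKM, is among the markers but below the level set for those genes. Calb1 was the steadiest marker in WT, at 2.51%, and C1ql2 the most variable, at 17.9%. No test of the spread was made.

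**Figure D3:**
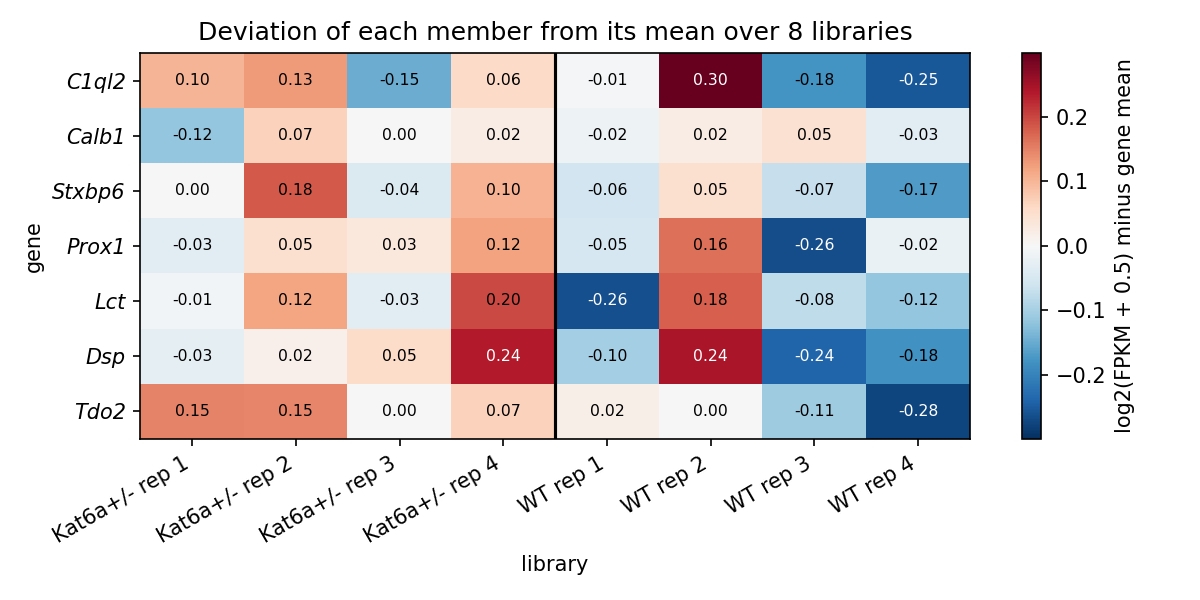
Deviation of each marker's log2(FPKM + 0.5) from its mean over the 8 libraries, with markers ordered by level and Kat6a+/- libraries left of WT. WT replicate 2 and Kat6a+/- replicates 2 and 4 are mostly above 0, and WT replicates 3 and 4 mostly below; the C1ql2 row runs from -0.25 in WT replicate 4 to 0.30 in WT replicate 2.

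The markers other than Calb1 tended to be high or low in the same libraries. Of the 7 markers, 7 were above their own mean in Kat6a+/- replicates 2 and 4 and 6 in WT replicate 2, while 1 was above it in WT replicates 1 and 3 and 0 in WT replicate 4. The summed level of the markers was 108, 116, 104 and 115 FPKM in Kat6a+/- replicates 1 to 4 and 104, 121, 99.1 and 97.0 FPKM in WT replicates 1 to 4. Both genotypes thus had libraries near the top of this range, and WT libraries held its ends.

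Correlations of log2 values over the 8 libraries were computed for all 21 pairs of markers. Pearson's r was above 0 in 20 pairs, with a median of 0.63, and in 21 pairs once each genotype's mean was taken off, with a median of 0.59. Prox1 and Dsp had the highest r, 0.89 (exact permutation p = 5.95e-04, adjusted over the 21 pairs p = 0.0125), with a Spearman rho of 0.90 (exact permutation p = 0.00456, adjusted p = 0.0750). Without WT replicates 2 and 3, the libraries farthest from the Prox1 median, r was 0.89, and with genotype means taken off it was 0.88. No other pair passed after adjustment by r, and no pair by rho. Tdo2 and Stxbp6 came next at an r of 0.81 (exact permutation p = 0.0154, adjusted p = 0.141), a rho of 0.71 (exact permutation p = 0.0576, adjusted p = 0.121) and an r of 0.86 without Kat6a+/- replicate 1 and WT replicate 4. The 6 pairs with Calb1 had a median r of 0.11, and the 15 pairs without it 0.65, a comparison made after the values were seen and not tested.

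The genes most like the markers in their pattern were sought among 6934 other named genes that averaged 5 FPKM or more, by Pearson's r with the markers' mean score (the mean over markers of the log2 value minus the gene's own mean) over the 8 libraries. These r values chose the genes and are a description. Mfsd4a, of the major facilitator family of transporters, led at 0.97 with 8.57 ± 0.537 FPKM in Kat6a+/- and 7.88 ± 0.825 FPKM in WT (SD, n = 4 each). Aldh1a1, which makes retinoic acid from retinaldehyde, had 0.96 with 14.0 ± 0.678 FPKM in Kat6a+/- and 12.7 ± 1.34 FPKM in WT. Tle1, a Groucho-type corepressor, and Fam222b had 0.95 each.

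Other genes of granule cells gave a comparable picture. Of 14 further genes, 10 had a higher and 4 a lower mean log2 value in Kat6a+/-, their median log2 fold change was 0.08, and 0 of 14 passed the adjusted threshold. Fam163b had the smallest p and measured 62.4, 61.7, 55.5 and 58.5 FPKM in Kat6a+/- and 53.7, 58.9, 47.1 and 42.5 FPKM in WT. Kat6a+/- replicates 1 and 2 lay above all WT libraries, and WT replicate 2 lay above Kat6a+/- replicates 3 and 4. Its log2 fold change was 0.24 (SE 0.09; 95% interval 0.04 to 0.45; limma unadjusted p = 0.0243 and adjusted p = 0.9998). Pdyn, which encodes the opioid precursor prodynorphin of mossy fibres, came second by p on the opposite side, at 3.71, 4.09, 3.24 and 3.58 FPKM in Kat6a+/- and 4.01, 4.64, 3.96 and 3.71 FPKM in WT. Its log2 fold change was -0.14 (SE 0.08; limma adjusted p = 0.9998).

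By library, the 14 genes followed the markers. Their mean score was 0.00 in Kat6a+/- replicate 1, 0.10 in replicate 2, -0.04 in replicate 3 and 0.06 in replicate 4, where the 7 markers had 0.01, 0.10, -0.02 and 0.12. In WT replicates 1 to 4 the 14 genes had -0.02, 0.09, -0.10 and -0.09, where the markers had -0.07, 0.14, -0.13 and -0.15. In both lists WT replicate 2 and Kat6a+/- replicates 2 and 4 were the highest libraries and WT replicates 3 and 4 the lowest.

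**Figure D4:**
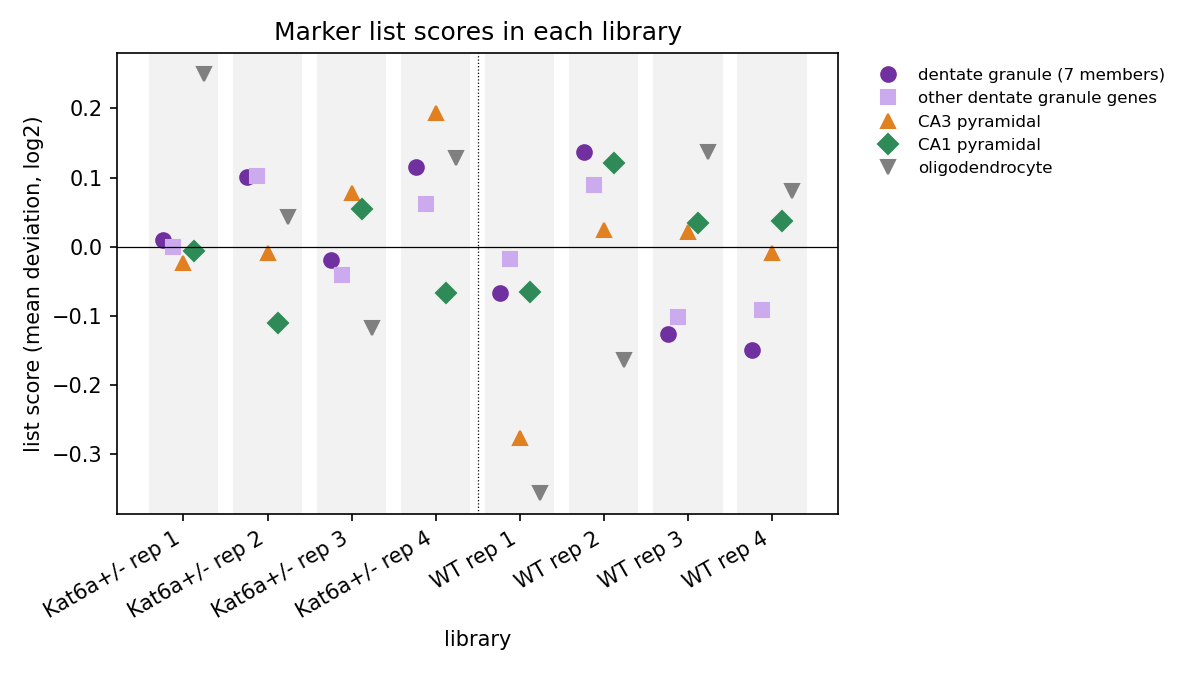
Mean score (mean over a list's tested genes of the log2 value minus the gene's mean over the 8 libraries) of 5 marker lists in each library, Kat6a+/- left of WT. The 7 dentate markers and the 14 other granule cell genes lie close together in each library, within 0.06 of each other, while CA3 and oligodendrocyte markers are lowest in WT replicate 1.

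For markers of neighbouring cells the values are a description, and their likeness to the dentate markers by library was not tested. CA1 pyramidal markers summed to 224 to 255 FPKM in Kat6a+/- and 236 to 254 FPKM in WT, with 3 of 8 higher and a median log2 fold change of -0.10, the smallest p being that of Wfs1, at 38.2 ± 1.26 FPKM in Kat6a+/- and 42.5 ± 3.93 FPKM in WT (SD, n = 4 each). CA3 pyramidal markers summed to 104 to 125 FPKM in Kat6a+/- and 87.8 to 111 FPKM in WT, with 7 of 8 higher and a median of 0.11, and the lowest sum was in WT replicate 1. Set against CA1 in the same library, the markers' sum was 0.470 ± 0.0483 of the CA1 sum in Kat6a+/- and 0.424 ± 0.0447 in WT. Set against CA3, it was 0.986 ± 0.0920 of the CA3 sum in Kat6a+/- and 1.02 ± 0.142 in WT (SD, n = 4 each). Both ratios overlapped between the genotypes, and they are descriptions without a test. Oligodendrocyte markers had a higher mean in Kat6a+/- for 8 of 8 genes, summing to 780 to 985 FPKM in Kat6a+/- and 648 to 947 FPKM in WT, and astrocyte markers for 1 of 8, summing to 759 to 851 FPKM in Kat6a+/- and 810 to 914 FPKM in WT. Markers of young granule cells and progenitors were at the low end, summing over 9 genes to 8.31 to 9.87 FPKM in Kat6a+/- and 8.50 to 10.4 FPKM in WT, with 1 of 5 tested genes higher. Neurog2 counted as lower at a log2 fold change of -0.0004. Among the genes below the minimum for testing, the Kat6a+/- mean was 155% of WT for Eomes, 117% for Top2a and 118% for Mki67. For Draxin it was 96.1%. Of these lists 0 genes passed the adjusted threshold in limma, and what the makeup of each tissue piece adds to the marker values was not tested.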

How the data were processed

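Hippocampal RNA from 4 Kat6a+/- and 4 WT libraries was analysed. The submitters' processing notes name STAR 2.5, HTSeq, DESeq2 and the build GRCm38 (mm10), without their roles. Per the file headers, the authors deposited FPKM for 54532 genes, and a second table of 605 genes with read counts, a normalised signal (the count divided by 1 size factor per library), FPKM, log2 fold changes and p-values of their own comparison. None of the 7 markers is in that second table, as deposited. Multiplied by gene length and 1 constant per library, 100% of FPKM values came out as whole reads within 0.01, and all 4840 deposited counts were matched.

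The main test was limma 3.58.1 (R 4.3.3, variance trend, genotype alone, two-sided) on log2(FPKM + 0.5) for the 14159 genes that averaged 0.5 FPKM or more, with Benjamini-Hochberg adjustment over all of them and a threshold of 0.05. Fold changes on this scale understate low genes. Single genes also had an exact permutation test over 70 assignments. Alternatives were edgeR 4.0.16 (quasi-likelihood), DESeq2 1.42.0 and limma-voom on recovered reads, other pseudocounts, filters and scaling, a replicate block, a term for replicates 1 and 2 against 3 and 4, and leaving out each library. The fits were tested on simulated data. Named genes were the markers, Kat6a, the 2 genes with the smallest p in lists that are described gene by gene, and the 5 genes most like the markers, of which 1 is not reported here. The markers and lists were chosen with earlier results of these data known, so no p over a list is given. Lists not printed in the report (CA2, mossy cell, choroid plexus, thalamus, neocortex) are in the closing section.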

Additional observations from a re-analysis of the deposited data

Results flagged for a closer look

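Within each genotype, the level of each marker and the summed FPKM of each marker list were looked at for 1 library far from the other 3, in 40 groups in all; chance flags about 1 in 20 such groups. No marker had such a library. WT replicate 1 stood apart with a CA1 sum of 236 FPKM, against 251 to 254 FPKM in the other WT libraries, and with a CA3 sum of 87.8 FPKM, against 107 to 111 FPKM. Kat6a+/- replicate 2 had a choroid plexus sum of 126 FPKM, against 12.8 to 25.3 FPKM in the other Kat6a+/- libraries, and WT replicate 3 had 19.6 FPKM, against 11.4 to 12.5 FPKM in the other WT libraries. The median log2 fold change of the dentate markers was 0.08 without WT replicate 1 and 0.08 without Kat6a+/- replicate 2, with 6 of 7 markers higher each time.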

How the results depend on the processing

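Under 18 alternatives 0 of the 7 markers passed the threshold in any. The median log2 fold change of the markers lay between 0.12 and 0.13 under the 10 alternatives that keep all libraries, and between 0.08 and 0.18 when each library was left out, with 5 to 7 markers higher. The count of called genes over all tested genes was 0 in limma, 5 with DESeq2 on recovered reads (Hpcal1, Kat6a, Etnppl, Cdh19 and Dio3), and 0 to 1 when each library was left out; the 1 gene was Gm25819 without Kat6a+/- replicate 3 and Gm25654 without WT replicate 3. Directions turned for Calb1, at 0.026 without Kat6a+/- replicate 1 and 0.0030 without WT replicate 3 (range -0.036 to 0.026 when leaving out each library), and for C1ql2, at -0.0043 without WT replicate 4; the cause was not tested. The replicate number as a block gave 0 called genes and the same median of 0.12. Deviations of same-numbered libraries correlated at 0.17, -0.07, 0.07 and 0.01 for replicates 1 to 4, so the numbers were not taken to pair the libraries. Scaling to a common FPKM sum moved the median of all genes by 0.0044 on the log2 scale. Depth limits Tdo2 most, at 90 to 211 reads per library, and 4 libraries per genotype leave 95% intervals about 0.2 to 0.5 wide on the log2 scale.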

Other observations

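Mossy cells, the hilar neurons that granule cells contact, were followed by 6 genes, of which 5 were tested, 1 with a higher and 4 with a lower mean log2 value in Kat6a+/-. Calb2, which encodes calretinin and is also used by interneurons and immature granule cells, measured 7.69, 10.5, 10.3 and 6.98 FPKM in Kat6a+/- and 11.8, 10.6, 14.8 and 15.2 FPKM in WT, without overlap. Calcrl, a receptor subunit for calcitonin gene-related peptide, measured 1.48, 1.81, 1.54 and 1.69 FPKM in Kat6a+/- and 1.28, 1.29, 1.20 and 1.44 FPKM in WT, also without overlap. In 1.53% of all tested genes every Kat6a+/- library lay below every WT library, and in 1.09% above. Neither passed in limma (adjusted p = 0.9998).

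Of 6 tested CA2 markers 4 had a higher mean in Kat6a+/-, with Necab2 at 32.4 ± 1.63 FPKM in Kat6a+/- and 34.9 ± 1.34 FPKM in WT and Stard5 at 2.53 ± 0.266 FPKM in Kat6a+/- and 2.20 ± 0.169 FPKM in WT (SD, n = 4 each). Choroid plexus markers had a higher mean in Kat6a+/- for 3 of 3 tested genes, of which Kl had the smallest p, at 3.45 ± 0.451 FPKM in Kat6a+/- and 2.72 ± 0.478 FPKM in WT. Ttr, which encodes transthyretin, had the second smallest, at 9.49, 119, 20.5 and 11.5 FPKM in Kat6a+/- and 8.81, 8.50, 15.5 and 7.61 FPKM in WT, with Kat6a+/- replicate 2 far above the other libraries. Kl did not share this peak, at 3.71 FPKM in Kat6a+/- replicate 2 and 3.70 FPKM in replicate 4. Whether choroid plexus tissue was the source of Kl was not tested. Of the markers of tissue beside the hippocampus, 3 of 7 were higher for thalamus and habenula, summing to 16.2 to 19.2 FPKM in Kat6a+/- and 15.9 to 19.4 FPKM in WT, and 2 of 7 for neocortex and entorhinal cortex, summing to 45.3 to 52.4 FPKM in Kat6a+/- and 47.9 to 55.3 FPKM in WT.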
